A study of Mus musculus with 15 samples.

Results

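MiR-199a, miR-199b and miR-214 are described here in mouse basal ganglia, 14 days after a bleed into the brain tissue (intracerebral haemorrhage, ICH). The 5 mature miRNAs were chosen by name, out of 683 distinct names in the small RNA sequencing tables, and are mmu-miR-199a-3p, mmu-miR-199a-5p, mmu-miR-199b-3p, mmu-miR-199b-5p and mmu-miR-214-3p, written below without the species prefix. MiR-199a-3p and miR-199b-3p have the same mature sequence and carried the same count in each of the 15 libraries, so the 5 names stand for 4 independent measurements. All 5 passed the filter on low counts.

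Wild-type mice had a sham operation or an ICH, with daily gavage over 14 days in every mouse. Sham and ICH mice received distilled water, and the remaining mice received Buyang Huanwu decoction (BYHWD), a herbal mixture of traditional Chinese medicine, at 6.19 g/kg after ICH. Each group had 5 mice, 1 library each, taken after saline perfusion from the basal ganglia of the operated hemisphere. The extraction protocol also speaks of an exosome pellet, and it cannot be said from the labels whether RNA came from whole tissue or from vesicles. The sources used here do not give the strain, the age or the way the bleed was induced.

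MiR-199 and miR-214 are made in mesenchymal cells such as fibroblasts, and neurons and glia carry little of them. The miR-199a-2 and miR-214 hairpins are processed from 1 long noncoding transcript, Dnm3os, which the mesenchymal transcription factor Twist1 activates. Mice without Dnm3os have skeletal defects. MiR-199a-5p is known from lung fibroblasts, where it targets caveolin-1, and from heart muscle, where it targets Hif-1α. MiR-214-3p targets Ezh2 in muscle, and miR-199a-3p targets mTOR and the receptor c-Met in human liver cancer cells.

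The mature sequences are shown for their identity and their seeds (bases 2 to 8, in capitals), the stretch that pairs with targets. They are given 5′ to 3′ from RefSeq on GRCm38.p6, whose table matched 4 of the 5 members by name, all but miR-199b-5p.
miR-199a-3p: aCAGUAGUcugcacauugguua
miR-199b-3p: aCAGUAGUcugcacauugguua
miR-199a-5p: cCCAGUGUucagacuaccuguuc
miR-214-3p: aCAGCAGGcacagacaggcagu
miR-214-5p: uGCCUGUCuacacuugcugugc
Among the sequences printed here, the 3p arms of miR-199a and miR-199b share 1 seed and the other 3 each have another. MiR-214-5p, the other arm of the miR-214 hairpin, is shown as a companion and is not among the 5 members. In the same RefSeq table, miR-761 has the seed of miR-214-3p, and miR-761 was not analysed here.

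The hairpins lie in antisense orientation within genes of the dynamin family, which encode membrane-fission enzymes. Mir199a-2 (chr1:162217814-162217923) and Mir214 (chr1:162223368-162223477), both on the plus strand, stand 5444 bases apart in exons of Dnm3os, opposite to an intron of Dnm3. Mir199b (chr2:32318460-32318569, plus strand) is opposite to an intron of Dnm1. Mir199a-1 (chr9:21496495-21496564, minus strand) is opposite to an intron of Dnm2. MiR-199a reads can come from chromosome 1 or 9, and the 3p reads from all 3 miR-199 loci. The hairpins of the Dnm3os transcript are printed with both mature arms in capitals, since their arms are the values compared below.
Mir199a-2: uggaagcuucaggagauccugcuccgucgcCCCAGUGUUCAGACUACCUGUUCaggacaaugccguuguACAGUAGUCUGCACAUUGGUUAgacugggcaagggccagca
Mir214: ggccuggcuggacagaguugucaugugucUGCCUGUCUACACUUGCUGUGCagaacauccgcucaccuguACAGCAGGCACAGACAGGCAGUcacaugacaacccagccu

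The promoter of Dnm3os (chr1:162217373-162217672, plus strand, 250 bases before to 50 bases after the start, GRCm38.p6) is shown because miR-199a and miR-214 can come from this transcript. Capitals mark the letters CANNTG, the E-box bound by Twist1 and many other basic helix-loop-helix factors, which reads the same on both strands.
Dnm3os promoter: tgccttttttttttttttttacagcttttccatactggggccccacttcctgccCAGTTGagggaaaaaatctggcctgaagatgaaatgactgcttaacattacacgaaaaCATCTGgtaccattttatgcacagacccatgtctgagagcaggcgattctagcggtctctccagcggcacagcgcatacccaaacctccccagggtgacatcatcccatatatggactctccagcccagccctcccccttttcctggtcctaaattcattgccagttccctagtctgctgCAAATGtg
The window holds 3 such matches. Of all 32851 RefSeq promoter windows of this length, 72.3% hold at least 1 and 17.6% hold at least 3, and a match is a description of the letters, not a binding site.

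Library totals ran from 4684611 to 9860236 counts, each miRNA counted once. Sham 4 and sham 5 stood apart from the rest. Their TMM factors, which correct library size for a few dominant miRNAs, were 0.667 and 0.721, against 0.954 to 1.195 in the other 13 libraries, and their summed level of 2 oligodendrocyte miRNAs was 23493 and 19827 CPM (counts scaled to library size), against 6280 to 10316 CPM elsewhere. Nearly all of this sum was miR-219a-2-3p, which reached 23192 CPM in sham. The other, miR-338-3p, was not raised in them. It stood at 301 to 526 CPM over all sham libraries, below every ICH library (547 to 629 CPM) and every BYHWD library (537 to 848 CPM). Levels below are CPM on TMM-scaled library sizes, and each call of a member is given without sham 4 and sham 5 as well. Calls of other miRNAs are given with all 15 libraries only.

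The 3p arm of miR-199 was the most abundant member and miR-214-3p was close to the limit of detection. MiR-199a-3p averaged 231.1 CPM over the 15 libraries, which ranks it 177 of 683 names. MiR-199a-5p averaged 70.0 CPM (rank 268), miR-199b-5p 29.6 CPM (rank 338) and miR-214-3p 3.27 CPM (rank 528), from 8 to 50 reads per library. The companion arm miR-214-5p had 0 to 19 reads per library and did not pass the filter. This order of the 4 members and miR-214-5p held in 15 of 15 libraries. Levels of different miRNAs also depend on how well each ligates to the adaptors, so the order is that of reads.

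MiR-199a-3p stood at 164, 150, 120, 116 and 115 CPM in sham 1 to 5. In ICH 1 to 5 it stood at 191, 265, 360, 135 and 316 CPM. In BYHWD 1 to 5 it stood at 280, 369, 184, 343 and 360 CPM. All 5 treated libraries lay above all sham libraries, while among the ICH libraries ICH 4 lay within the sham range and the other 4 lay above it.

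MiR-199a-5p, the other arm of the same hairpins, stood at 52.7, 56.4, 30.0, 31.4 and 25.0 CPM in sham 1 to 5. In ICH 1 to 5 it stood at 52.5, 78.5, 113, 38.6 and 109 CPM. In BYHWD 1 to 5 it stood at 83.9, 118, 54.0, 77.1 and 131 CPM. Both groups with haemorrhage overlapped the sham group, ICH through ICH 1 and ICH 4 and BYHWD through BYHWD 3, which lay between sham 1 and sham 2.

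MiR-199b-5p, from the locus on chromosome 2, stood at 22.9, 21.5, 18.6, 14.9 and 13.8 CPM in sham 1 to 5. In ICH 1 to 5 it stood at 22.4, 36.7, 46.8, 18.3 and 34.1 CPM. In BYHWD 1 to 5 it stood at 25.4, 56.1, 28.0, 36.9 and 47.2 CPM. As for the 3p arm, every treated library lay above every sham library, and ICH 1 and ICH 4 overlapped sham.

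MiR-214-3p had 10, 16, 8, 16 and 8 reads in sham 1 to 5, or 1.39, 2.00, 0.800, 3.10 and 1.72 CPM. In ICH 1 to 5 it had 34, 27, 50, 10 and 45 reads, or 4.07, 3.503, 6.17, 1.60 and 4.20 CPM. In BYHWD 1 to 5 it had 22, 48, 21, 20 and 34 reads, or 3.15, 4.97, 2.94, 2.49 and 6.89 CPM. The highest sham library was sham 4, which alone overlapped BYHWD, and ICH 4 was again the lowest ICH library.

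**Figure D1:**
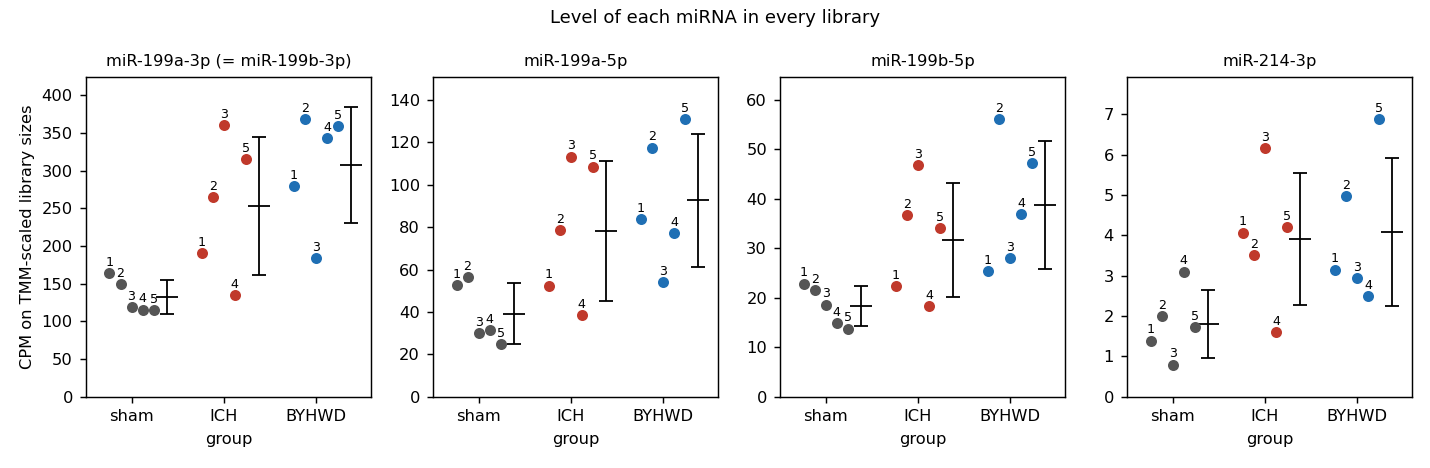
Level in CPM (y axis, from 0) of miR-199a-3p, miR-199a-5p, miR-199b-5p and miR-214-3p in each library, by group (x axis). Points are single libraries with their replicate number, and the bar beside each group is its mean with 1 SD. ICH 4 is the lowest of the ICH libraries in all 4 panels, and the BYHWD points of miR-199a-3p and miR-199b-5p all lie above the sham points.

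The first comparison asks how these miRNAs differed 14 days after the bleed in mice given water. All 4 measurements were higher on average in ICH, about 2-fold, and none passed the threshold of an adjusted p of 0.05. MiR-199a-3p averaged 253 ± 91.4 CPM after ICH against 133 ± 22.7 CPM after sham surgery (SD, n = 5 each), a log2 difference of 0.93 with an SE of 0.24 (edgeR adjusted p = 0.0687). MiR-199a-5p averaged 78.3 ± 33.1 against 39.1 ± 14.4 CPM (log2 difference 1.00 with an SE of 0.33, edgeR adjusted p = 0.105). MiR-199b-5p averaged 31.7 ± 11.5 against 18.3 ± 3.97 CPM (log2 difference 0.78 with an SE of 0.27, edgeR adjusted p = 0.114). MiR-214-3p averaged 3.91 ± 1.64 against 1.804 ± 0.853 CPM (log2 difference 1.18 with an SE of 0.39, edgeR adjusted p = 0.105).

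So 0 of the 5 names were called, where 5 of all 652 miRNAs tested (0.767%) were. The groups overlapped for all 5, against 17 of 652 miRNAs (2.61%) whose lowest ICH library exceeded the highest sham library. At an unadjusted p under 0.05 all 5 names passed with higher values in ICH, against 63 of 652 (9.66%), and DESeq2 called 3 of the 5 names, both 3p names and miR-199a-5p, among 48 of 652 miRNAs that it called. Without ICH 4, edgeR called the 3p arm under both names (log2 1.09, adjusted p = 0.0129). Without sham 4 and sham 5 the log2 fold changes were 0.80 for miR-199a-3p, 0.75 for miR-199a-5p, 0.59 for miR-199b-5p and 1.51 for miR-214-3p, and none was called. In these bulk samples, more cells that make a miRNA, more of it per cell and, if vesicles were profiled, more of it released cannot be told apart.

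The second comparison asks whether the decoction altered their level after a bleed. No difference between BYHWD and ICH was detected for any member. MiR-199a-3p was at 307 ± 77.0 CPM in BYHWD (n = 5), a log2 difference from ICH of 0.28 with a 95% interval from -0.23 to 0.79 (edgeR adjusted p = 0.942). The sham level of the 3p arm would correspond to -0.93 on this scale, which lies below the interval. Each sham value given here is itself an estimate (SE 0.24 to 0.39), and the intervals do not hold its error. Its place outside an interval is therefore no test, and BYHWD is tested against sham in the third comparison. For miR-199a-5p the difference was 0.24 (interval -0.44 to 0.92) and for miR-199b-5p it was 0.29 (interval -0.27 to 0.84), where the sham levels would correspond to -1.0 and -0.78. For miR-214-3p it was 0.03 (interval -0.72 to 0.77), where the sham level would correspond to -1.18. The edgeR adjusted p was at least 0.942 for each, and the intervals leave room for changes of up to 1.73-fold upward for the 3p arm. Here edgeR called 0 of 652 miRNAs (0%) and gave 31 (4.75%) at an unadjusted p under 0.05, none of them a member, and DESeq2 and limma-voom called 0 as well.

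The third comparison sets treated mice against mice without a bleed. The 3p arm of miR-199 and miR-199b-5p rose. MiR-199a-3p was 2.31-fold above sham (log2 difference 1.21 with an SE of 0.25, edgeR adjusted p = 0.0117). MiR-199b-5p, at 38.7 ± 12.95 CPM, was 2.10-fold above it (log2 1.07, SE 0.27, edgeR adjusted p = 0.0474). MiR-199a-5p, at 92.7 ± 31.3 CPM, missed the threshold (log2 1.24, SE 0.33, edgeR adjusted p = 0.0556), as did miR-214-3p at 4.09 ± 1.83 CPM (log2 1.21, SE 0.39, edgeR adjusted p = 0.0989).

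Thus 3 of the 5 names were called higher, 2 of them from the same reads, against 13 of all 652 (1.99%) called higher and 15 (2.3%) in either direction. The groups did not overlap for these 3 names, against 22 of 652 miRNAs (3.37%) with all BYHWD libraries above all sham libraries. The call of the 3p arm was lost without sham 4 (adjusted p = 0.0532), without sham 5 (adjusted p = 0.053), without BYHWD 5 (adjusted p = 0.0553) and without both sham libraries (log2 1.08, adjusted p = 0.0975). In each of these fits 0 of the 5 names were called. MiR-199b-5p was called in 9 of 27 alternative settings and the 3p arm in 23 of 27, and DESeq2 called all 5 names among 52 of 652 miRNAs that it called. This comparison shares its BYHWD libraries with the second and its sham libraries with the first.

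With both groups of mice that had a bleed pooled (10 libraries) and set against sham (5 libraries), all 4 measurements rose. The log2 fold change was 1.07 for miR-199a-3p (SE 0.22, edgeR adjusted p = 0.0133) and 1.12 for miR-199a-5p (SE 0.29, edgeR adjusted p = 0.0351). It was 0.93 for miR-199b-5p (SE 0.24, edgeR adjusted p = 0.0343) and 1.197 for miR-214-3p (SE 0.35, edgeR adjusted p = 0.0483). All 5 names were called, against 22 of 652 called higher (3.37%) and 50 (7.67%) in either direction, and the median over the 5 names was 1.07, against -0.01 over all 652. This comparison uses the same libraries as those before it and is no further evidence beside them. None of the 5 names was called without sham 4 and sham 5 or without sham 4 alone, when miR-199a-3p had adjusted p-values of 0.0976 and 0.0583. Only the 3p arm, under its 2 names, was called without sham 5, ICH 2, ICH 3, ICH 5, BYHWD 2, BYHWD 4 or BYHWD 5. Of the 15 fits without 1 library, miR-214-3p was called in 1, and miR-199a-5p and miR-199b-5p in 7 each.

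**Figure D2:**
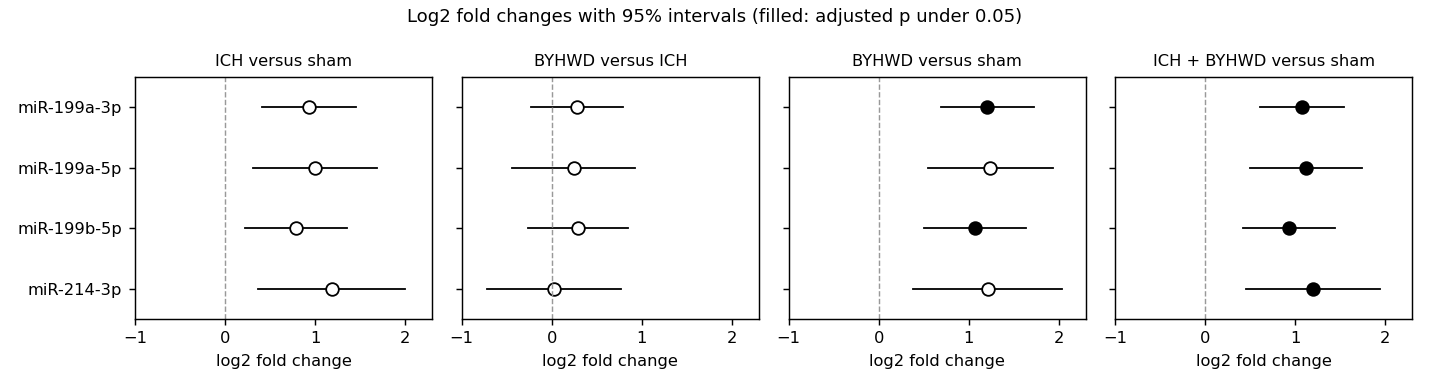
Log2 fold change (x axis) of each measurement in the 4 comparisons, with the 95% interval from edgeR's quasi-likelihood fit. Filled points passed an adjusted p of 0.05. Every interval against sham lies above 0, every interval of BYHWD versus ICH includes 0, and only the pooled comparison has 4 filled points.

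**Figure D3:**
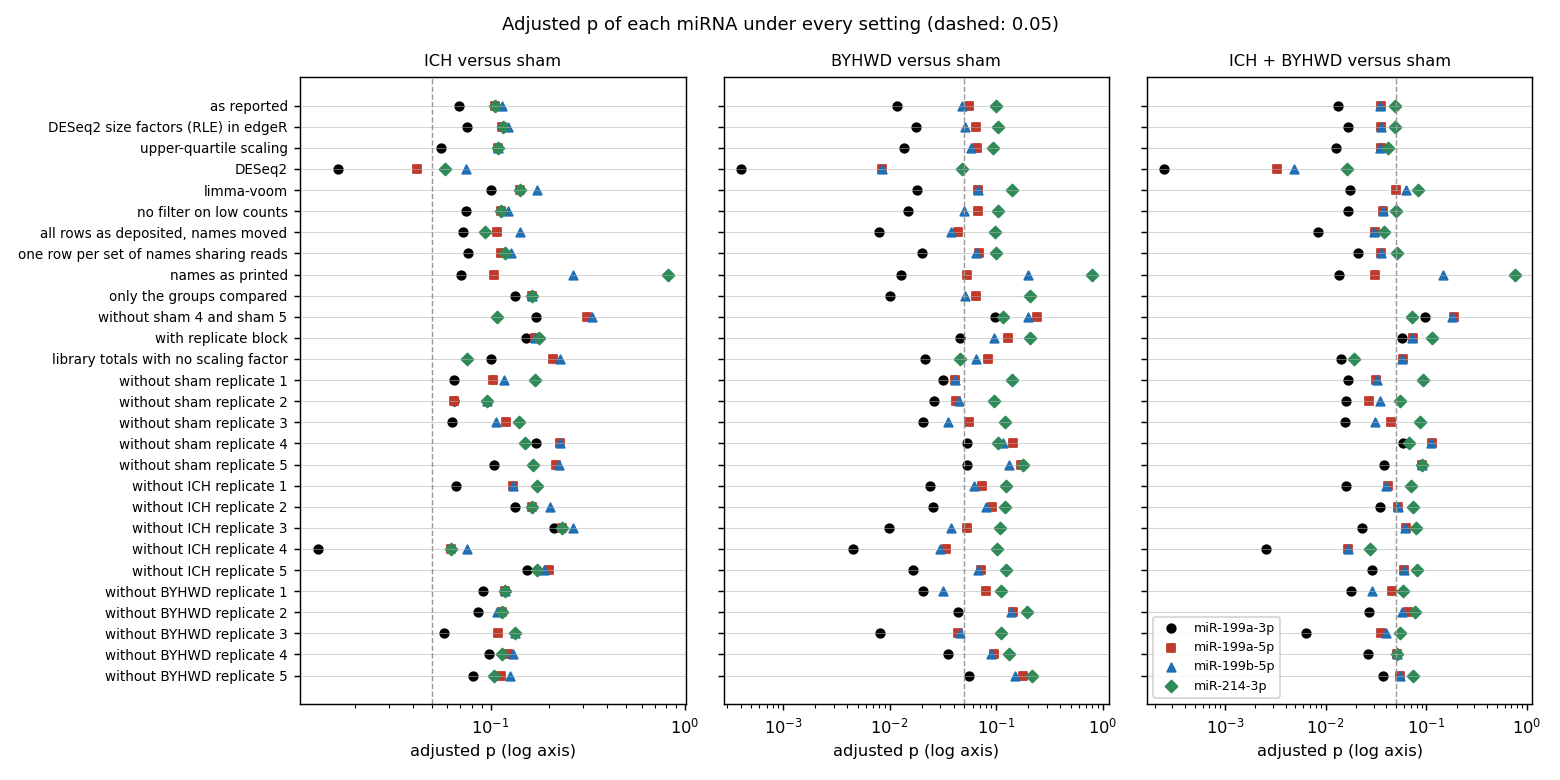
Adjusted p (x axis, log scale) of the 4 measurements under each setting (y axis), for the 3 comparisons against sham, with the threshold of 0.05 as a dashed line. The pooled comparison has no value for the fit of only the groups compared, which is the fit as reported. In the BYHWD panel miR-199a-3p lies left of the line under 23 of 27 alternatives, and in the ICH panel under 2 of 27.

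Arms and paralogs were then compared within each library, where the ratio of 2 counts does not depend on library scaling. No difference between groups was detected in the proportions within the family. The 3p arm had 1.92 to 3.01 reads for each read of both 5p arms together, with a mean log2 ratio of 1.25 ± 0.234 in sham, 1.22 ± 0.0804 in ICH and 1.24 ± 0.233 in BYHWD (SD, n = 5 each). The 3 groups overlapped, and the ICH libraries were the closest to each other.

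MiR-199b-5p had 0.303 to 0.621 reads for each read of miR-199a-5p, its paralog from the other loci. The mean log2 ratio was -1.04 ± 0.277 in sham, -1.27 ± 0.240 in ICH and -1.25 ± 0.329 in BYHWD. The difference of ICH from sham was -0.23 (exact permutation p = 0.198, two-sided, adjusted over 6 ratios p = 0.81), that of BYHWD from sham -0.21 (exact permutation p = 0.31, adjusted p = 0.984) and that of BYHWD from ICH 0.01 (exact permutation p = 0.96, adjusted p = 0.96). The 5p arms are closely alike, and the sources used here do not say how mismatched reads were assigned.

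MiR-214-3p had 0.00710 to 0.0276 reads for each read of miR-199a-3p, although its hairpin is on the same transcript as Mir199a-2. The mean log2 ratio was -6.26 ± 0.763 in sham, -6.03 ± 0.330 in ICH and -6.27 ± 0.531 in BYHWD, with the widest spread in sham, where miR-214-3p had 8 to 16 reads. Sham 4 and sham 5 had the highest sham ratios, -5.18 and -5.97, against -6.81, -6.18 and -7.14 in sham 1 to 3. Without these 2 libraries the difference of ICH from sham was 0.68 in place of 0.23, and that of BYHWD from sham 0.44 in place of -0.01, a change of sign (exact permutation, adjusted p = 0.268 and 0.607). Over 6 ratios and 4 comparisons no test passed, and the smallest unadjusted exact permutation p of the 24 was 0.167. With 5 libraries against 5 the smallest possible p is 0.00794.

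**Figure D4:**
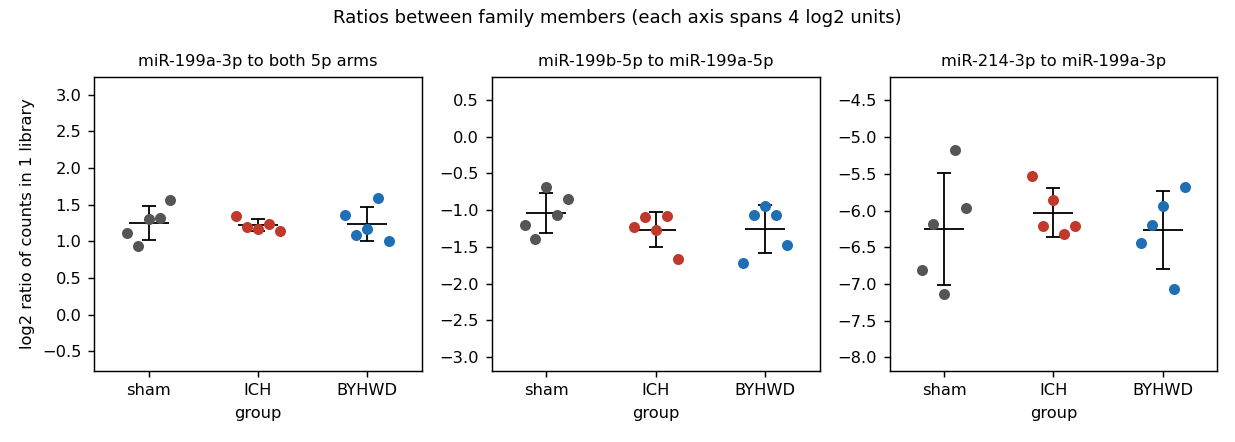
Log2 ratio of counts (y axis) between family members in each library, by group (x axis), with the group mean and 1 SD. The 3 groups overlap in each panel, and miR-214-3p to miR-199a-3p has the widest spread.

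The miR-199 arms varied together from library to library, and miR-214-3p followed them less closely. Over the 15 libraries the Pearson correlation of log2 CPM was 0.96 between miR-199a-3p and miR-199a-5p (Spearman 0.93), 0.94 between miR-199a-3p and miR-199b-5p (Spearman 0.96), and 0.77 between miR-199a-3p and miR-214-3p (Spearman 0.78). With each group's mean removed the Pearson values were 0.92, 0.88 and 0.55. Over the 15 libraries the lowest of the 6 pairs was miR-199b-5p with miR-214-3p, at 0.725 (Spearman 0.721, and 0.494 with group means removed). Without sham 4 and sham 5, miR-214-3p had higher values, 0.84 with miR-199a-3p, 0.89 with miR-199a-5p and 0.81 with miR-199b-5p. The 3 pairs of miR-199 arms then had 0.90 to 0.95. How far the 8 to 50 reads of miR-214-3p per library lower its correlations was not tested. Within sham, miR-214-3p was highest in sham 4, where miR-199a-3p had its second lowest sham level. The correlations are descriptions over libraries that share their scaling.

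Of all other miRNAs, 416 averaged 10 CPM or more. Among these, whose median correlation with miR-199a-3p was -0.04, the most alike was miR-450a-5p, from an X-linked cluster (Pearson 0.90, Spearman 0.92, 0.74 with group means removed, n = 15 libraries). It stood at 15.3 ± 2.29 CPM in sham, 23.2 ± 5.17 CPM in ICH and 24.7 ± 2.86 CPM in BYHWD, and miR-351-5p of the same cluster was also among the 10 most alike (Pearson 0.82). The second was miR-142a-3p, a miRNA of blood cells (Pearson 0.83). MiR-10a-5p of the Hoxb cluster had 0.78, and miR-27a-3p and miR-23a-3p, which share 1 primary transcript, had 0.77 and 0.74. MiR-339-5p had 0.76, miR-374c-3p 0.76, and miR-374b-5p and miR-374c-5p, which share their reads, had 0.75 each. Of these 10, 7 were also among the 10 most alike without sham 4 and sham 5, and 4 were with group means removed.

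**Figure D5:**
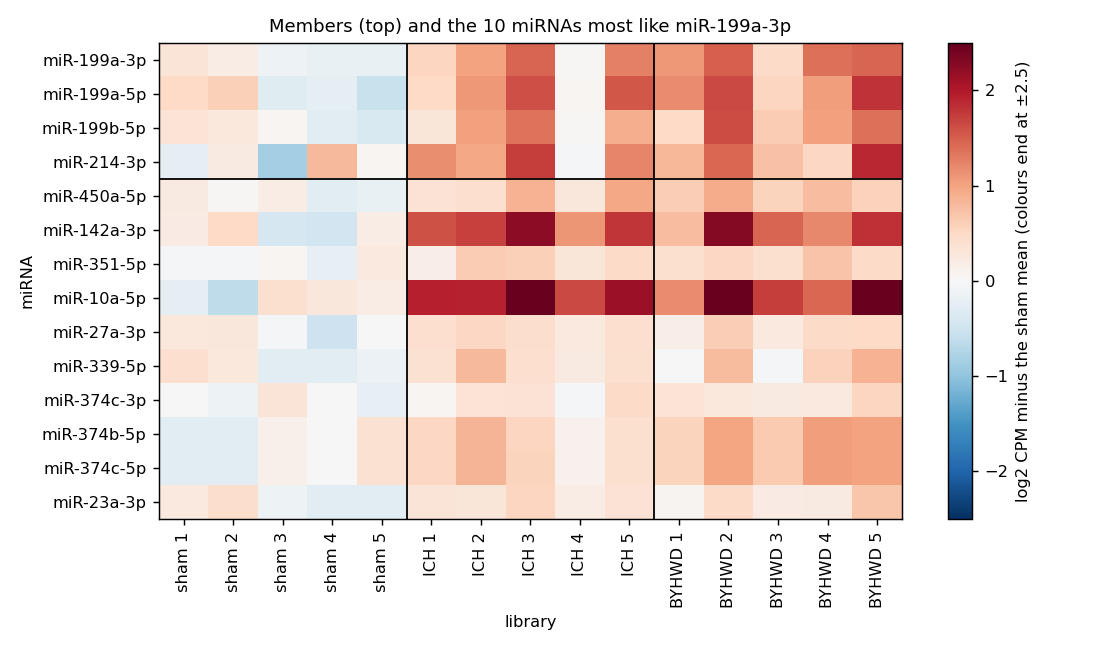
Log2 CPM minus the sham mean (colour) of the 4 measurements and of the 10 miRNAs with the highest correlation with miR-199a-3p (rows) in each library (columns). ICH 4 is the palest ICH column for the members, and ICH 3, BYHWD 2 and BYHWD 5 are among the darkest.

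Among other miRNAs linked with mesenchymal cells, miR-10a-5p rose in both groups against sham and miR-21a-5p rose with the groups pooled. Of a list of 11 such miRNAs, 8 had a row in the tables and 7 passed the filter. MiR-10a-5p was called higher in ICH and in BYHWD against sham (log2 2.41 and 2.13, edgeR adjusted p = 0.00666 and 0.0117). MiR-21a-5p, a miRNA often linked with fibrosis, passed only in the pooled comparison (log2 0.82, SE 0.19, edgeR adjusted p = 0.0225). Against sham it narrowly missed the threshold in ICH (log2 0.93, edgeR adjusted p = 0.0502) and missed it in BYHWD (log2 0.71, edgeR adjusted p = 0.0933). MiR-10b-5p stood at 84.4, 88.3 and 93.8 CPM in sham, ICH and BYHWD, and the cartilage miRNA miR-140-5p at 127, 128 and 136 CPM. MiR-140-3p stood at 3608, 3012 and 2802 CPM and miR-152-3p at 668, 783 and 728 CPM, while miR-224-5p was at 3.65, 4.22 and 5.11 CPM. The median log2 fold change of the 7 was 0.19 for ICH and 0.15 for BYHWD against sham, where the medians over all miRNAs were -0.02 and 0.02, and 6 of the 7 lay above 0 in each. In ICH and in BYHWD against sham 1 of the 7 was called higher, against 5 (0.767%) and 13 (1.99%) of all 652 miRNAs. With the groups pooled, 2 of the 7 were called higher, against 22 of 652 (3.37%). The summed level of the list, most of it miR-21a-5p, was 13204 to 23616 CPM in sham, 25628 to 46454 CPM in ICH and 22152 to 37462 CPM in BYHWD. The ICH and sham ranges of the sum did not overlap, and neither did those of miR-21a-5p alone (9686 to 15928 CPM in sham, 21351 to 40253 CPM in ICH). Of all 652 miRNAs, 17 (2.61%) had every ICH library above every sham library. The sum is mostly a value of that 1 miRNA, miR-21a-5p, and not of the list.

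The smooth muscle and pericyte miRNAs miR-143 and miR-145a, other residents of the vessel wall, gave no call in any comparison. Over all 652 miRNAs, 0.767%, 1.99% and 3.37% were called higher in ICH, in BYHWD and in both together against sham. At such shares, no call among 4 miRNAs does not show that they were unchanged. MiR-143-3p stood at 19320, 19831 and 22063 CPM in sham, ICH and BYHWD, and miR-145a-5p at 725, 925 and 997 CPM. The less abundant arms were miR-143-5p, at 36.2, 36.5 and 35.8 CPM, and miR-145a-3p, at 108, 93.0 and 111 CPM. MiR-145a-5p lay above sham by log2 0.35 in ICH, 0.46 in BYHWD and 0.40 with both together. Its edgeR adjusted p was 0.224, 0.124 and 0.0823. Its intervals lay above 0, from 0.0088 to 0.69, 0.12 to 0.80 and 0.10 to 0.71. Of the 4 miRNAs, 3, 3 and 2 had a log2 fold change above 0 in these comparisons. Both arms of the endothelial miR-126a and 3 members of the matrix-regulating miR-29 family gave no call either, with medians of -0.11 and 0.05 for ICH against sham. The most abundant of these were miR-126a-3p, at 12127, 10717.5 and 10650 CPM in sham, ICH and BYHWD, and miR-29a-3p, at 12437, 11091 and 10942 CPM.

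Several leukocyte miRNAs rose against sham. Of 6 tested, 3 were called higher in ICH and the same 3 in BYHWD against sham, miR-142a-3p, miR-155-5p and miR-147-3p. Of all 652 miRNAs, 5 (0.767%) and 13 (1.99%) were called higher in these comparisons. With both groups together 5 of the 6 were called, miR-223-3p and miR-142a-5p as well, against 22 of 652 (3.37%). MiR-150-5p was called in none, at 207, 226 and 208 CPM in sham, ICH and BYHWD. Their summed level was 304 to 425 CPM in sham, 533 to 744 CPM in ICH and 359 to 819 CPM in BYHWD. MiR-142a-3p stood at 17.7 ± 5.13 CPM in sham, 57.6 ± 16.3 CPM in ICH and 52.6 ± 21.7 CPM in BYHWD, and no listed leukocyte miRNA was at 0 in any group. MiR-147-3p was close to the limit of detection in sham, at 0.44 CPM. It had 15 reads over all sham libraries, against 157 in ICH and 138 in BYHWD. ICH 4 was the lowest ICH library on the leukocyte sum as well, at 533 CPM, while among treated libraries BYHWD 1 was the lowest at 359 CPM and had 280 CPM of miR-199a-3p. The part of leukocytes in the result was not tested.

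Choroid plexus miRNAs (miR-204-5p, miR-211-5p and miR-1298-5p, 3 of 3 tested and 0 called) varied widely between libraries, with summed levels of 1564 to 17992 CPM in sham, 1821 to 17242 CPM in ICH and 5688 to 15051 CPM in BYHWD. In ICH the lowest and highest libraries were the same as for miR-199a-3p, ICH 4 at 1821 CPM and ICH 3 at 17242 CPM. In sham the lowest library was also the same, sham 5 at 1564 CPM, but the highest was not, since sham 2, with 17992 CPM of choroid plexus miRNAs, had 150 CPM of miR-199a-3p and sham 1 the most, at 164 CPM. In BYHWD the order differed at both ends, since BYHWD 1, the lowest at 5688 CPM, had 280 CPM of miR-199a-3p, and BYHWD 3, the highest treated library at 15051 CPM, had the lowest treated level of miR-199a-3p at 184 CPM. Lists for erythroid cells (4 tested), epithelium (4), striated muscle (3), neurons (5) and oligodendrocytes (2) gave no call in any comparison. With so few miRNAs in each list, the lack of a call does not show that they were unchanged. The part of these cell types in the result was not tested.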

How the data were processed

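Small RNA was sequenced in 15 libraries, 5 per group, from NEBNext libraries per the labels' protocols. The authors' tools were cutadapt, Bowtie and edgeR, without versions, per the submitters' processing notes, which also name hg38, a human build, although the names are those of mouse miRNAs. The deposited values are whole-number read counts per mature miRNA. The sources used here do not say how reads with several matches were assigned.

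In each of the 15 tables there are 929 counts and 928 names, and the first count is the library's own number, so every count was assigned to the name 1 row above. As printed, the 2 rows named miR-199a-5p had mean counts of 229 and 543, and after the move both had 543. As printed, miR-214-3p would have a mean count of 127 in place of 24.6. For names on several rows (76 of 683) only the row of highest total entered, which left 66.6 to 74.8% of counts. For 36 names the counts equal those of another name, within 1% in every library.

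The test was edgeR 4.0.16's robust quasi-likelihood F-test with TMM scaling and filterByExpr (R 4.3.3), with 15 libraries in 1 fit, 4 comparisons and Benjamini-Hochberg adjustment over 652 miRNAs. The SE comes from the fold change and F. Ratios of counts (0.5 added) were tested by exact permutation over libraries. DESeq2 1.42.0 and limma-voom (limma 3.58.1) were alternatives. The edgeR test was checked on simulated counts with known changes. The members, lists and tests were chosen with earlier results of these data known. Named are the 5 members, miR-214-5p, the 10 miRNAs most alike with miR-199a-3p, and those tested of the mesenchymal and mural lists. From the other lists, those called and some abundant or marker miRNAs are named. Each library is a mouse of its own, per the labels.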

Additional observations from a re-analysis of the deposited data

How the results depend on the processing

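The direction of each log2 fold change against sham was kept under all alternatives, and calls were less stable. With names as printed, miR-199b-5p and miR-214-3p carry counts of other names (means of 549 and 127), so that setting is no check of them. The alternatives also include fits without a library of the group not compared. With DESeq2, 3 of the 5 names were called in ICH and 5 in BYHWD against sham, among 48 and 52 of 652 miRNAs called. Without sham 4 and sham 5, 0 were called in BYHWD and 0 in both groups together against sham. For both groups together 3 were called with limma-voom, 3 with names as printed and 3 with library totals alone, a setting chosen after seeing the data. Leaving out 1 library at a time gave 0 to 2 names in ICH, 0 to 4 in BYHWD and 0 to 5 in both groups together against sham, and 0 in BYHWD against ICH. With library totals alone the 3 names called in BYHWD against sham were both 3p names and miR-214-3p (adjusted p = 0.0458), not miR-199b-5p. For BYHWD against ICH, miR-214-3p had -0.0524 with upper-quartile scaling and -0.23 to 0.24 without 1 library. Without 1 library, the log2 ratio of miR-199b-5p to miR-199a-5p differed by -0.0859 to 0.131 in this comparison, by -0.315 to -0.128 for ICH against sham and by -0.301 to -0.0971 for BYHWD against sham.

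Same-numbered libraries did not pair (correlations of -0.43 to 0.22 over 15 pairs, 3 of them over 0.1). With the replicate number as a block, 0 names were called in ICH, 2 in BYHWD and 0 in both groups together against sham. None of 24 ratio tests passed under any alternative, and 58 of 432 ratio differences changed sign. With the replicate block none could pass, since too few arrangements exist. Without sham 4 and sham 5, the log2 ratio of miR-214-3p to miR-214-5p in BYHWD against sham differed by 0.684 in place of -0.532. Its adjusted p was then 0.107 (exact permutation). That is the lowest value 1 ratio alone can reach in this setting, so the setting cannot decide for it. Sham 4 and sham 5 had 0 reads of miR-214-5p, so their ratios of 33 and 17 depend on the 0.5 added. With 1 added in its place, the difference over all libraries was -0.18. Over all miRNAs, 5 calls in ICH against sham became 4 to 48 in other settings and 4 to 31 without 1 library. The 15 calls in BYHWD against sham became 7 to 52 and 2 to 54, and the 50 in both groups together 5 to 84 and 6 to 93. The 8 to 16 reads of miR-214-3p per sham library limit its precision.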
